A study of Mus musculus with 9 samples.

Results

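The transcription factors that build the trophectoderm were followed in mouse embryonic stem cells with and without Xpc. The set held 10 genes, Cdx2, Eomes, Elf5, Gata2, Gata3, Hand1, Tfap2a, Tfap2c, Tead4 and Esx1, chosen by name from their known roles. The choice was made with earlier results of these data known. All 10 had at least 1 probe on the array, 13 probes in all, and 9 of the 10 passed the filter on dim probes and entered the fit of 19913 genes. Elf5 did not pass.

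Cells carried Xpc flanked by loxP sites, the targets of Cre recombinase, in a line made for inducible knockout. Xpc is a sensor of DNA damage for nucleotide excision repair and has been described as a coactivator of Oct3/4, the central stem cell factor. The floxed group had no deletion, the induced group was taken 4 days after the deletion was set off, labelled Tx, and the null group was constitutively knocked out for Xpc. Each group had 3 arrays of 1 colour, hybridised with total RNA labelled with Cy3, and all 9 samples are labelled embryonic stem cells. The agent behind Tx, the strain and whether each group is 1 clone are not given in the sources used here. Nor is it stated whether the arrays of a group came from separate cultures, so the p-values measure only the spread between these arrays, which may be technical.

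Trophectoderm is the outer layer of the blastocyst and gives rise to the trophoblast of the placenta. In the outer cells of the embryo, Tead4 with its coactivator Yap and, in parallel, Notch signalling switch on Cdx2, and Cdx2, Gata3, Eomes, Elf5 and the AP-2 factors Tfap2a and Tfap2c then hold one another active. In embryonic stem cells, which stand for the inner cell mass, Oct3/4 keeps Cdx2 and its partners low, and forced Cdx2 or loss of Oct3/4 turns such cells towards trophoblast. Low Cdx2 is therefore the usual state of such cells.

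The values are spot signals processed by the scanner software, set on a log2 scale relative to the 75th percentile of the same array, so that 0 is the 75th percentile and a difference of 1 is a doubling. A probe was called detected where the scanner software marked it well above background. On the 9 arrays between 47.4% and 57.9% of spots were detected and none was saturated. The number of arrays, and for dim probes the background, limit the precision. Xpc itself read 0.43 ± 0.23 (SD, n = 3) in floxed, -0.95 ± 0.23 in induced and -1.25 ± 0.35 in null cells, and neither the induced nor the null group overlapped the floxed group. The probe was still detected on every induced and null array. Its difference from floxed cells was -1.68 in null cells (limma, adjusted p = 0.00584) and -1.38 in induced cells (limma, adjusted p = 0.224 over all genes). With slide as a fixed block the call in null cells was lost, at -1.53 (limma, adjusted p = 0.179). Which part of Xpc is deleted, and whether the probe lies in it, is not given in the sources used here. All 10 embryonic stem cell markers on a list that includes Pou5f1, Sox2 and Nanog were detected on every array. The 3 slides were scanned one by one. Floxed arrays 1 and 2 shared the first slide. Slide 2 paired floxed array 3 with null array 3, and on slide 3 were null arrays 1 and 2 beside all induced arrays. Floxed array 3 stood apart from the other floxed arrays: over all genes its log2 values correlated at 0.986 with each of them and at 0.993 with null array 3. The SD over genes of its difference from the mean of floxed arrays 1 and 2 was 0.49, against 0.28 for the difference between those arrays. The results that rest on it are given with and without it.

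In null cells 3 of the factors fell compared with floxed cells and none of the 9 tested rose. Those that fell were Cdx2, the homeobox factor that directs trophectoderm fate, Gata3, a zinc finger factor that acts beside Cdx2, and Hand1, a basic helix-loop-helix factor of trophoblast giant cells. Each of these 3 passed the filter through the floxed and induced groups and not the null group, which favours a fall in null cells. With no filter Cdx2 still passed (limma, adjusted p = 0.0293). Gata3 (limma, adjusted p = 0.189) and Hand1 (limma, adjusted p = 0.0820) did not. Over all genes tested 1.11% fell and 0.738% rose. In induced cells none of the 9 factors tested passed, and over all genes 0.00502% rose and 0% fell. Cdx2 and Hand1 were also lower in null than in induced cells, though neither passed there with no filter.

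The promoters of Cdx2 and Gata3 are shown because these genes gave the largest falls among the factors. Sequences are from RefSeq on GRCm38.p6, from 250 bases before the start site to 50 after it, written 5′ to 3′ along the gene. The Cdx2 window is chr5:147307200-147307499 on the minus strand and the Gata3 window is chr2:9878551-9878850 on the minus strand. Capitals mark matches to an octamer of the POU factors, to which Oct3/4 belongs, and to the palindromic site of AP-2 factors.
Cdx2: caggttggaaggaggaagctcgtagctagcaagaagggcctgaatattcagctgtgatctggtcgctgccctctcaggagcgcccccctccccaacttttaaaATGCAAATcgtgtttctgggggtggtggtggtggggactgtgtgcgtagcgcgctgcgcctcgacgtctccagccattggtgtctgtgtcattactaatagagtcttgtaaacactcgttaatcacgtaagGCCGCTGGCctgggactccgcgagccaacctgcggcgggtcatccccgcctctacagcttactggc
Gata3: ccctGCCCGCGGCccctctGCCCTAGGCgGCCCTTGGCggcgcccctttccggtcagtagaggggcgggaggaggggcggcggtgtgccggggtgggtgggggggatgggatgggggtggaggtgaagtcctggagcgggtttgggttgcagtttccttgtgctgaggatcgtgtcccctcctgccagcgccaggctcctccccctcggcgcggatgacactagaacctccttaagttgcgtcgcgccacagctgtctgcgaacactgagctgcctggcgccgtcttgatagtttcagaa
The Cdx2 window held 1 octamer match, at position -147 from the start site, and 1 AP-2 match at position -16. The Gata3 window held no octamer and 3 AP-2 matches, at positions -246, -231 and -221, with no overlap among them. Both strands were searched for 5 motifs, ATGCAAAT for POU, GCCNNNGGC for AP-2, GGAATG for TEAD, AGATAA for GATA and TTTATG for Cdx factors, and the motifs were chosen after the sequences were seen. The octamer occurred in 1.74% of 32851 promoters of the same length, the AP-2 site in 16.6%, the TEAD site in 14.7%, the Cdx site in 11.9% and the GATA site in 11.2%. Among the other factors with a promoter sequence, Elf5 had a TEAD and a Cdx match, in different windows. Gata2 had a TEAD and an AP-2 match and Tfap2a a Cdx match, while Eomes and Esx1 had no match to any of the 5. No promoter sequence of Hand1, Tfap2c or Tead4 was available. A match describes the letters only, and binding was not measured here.

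Cdx2 was read by probe A_52_P177490 at chr5:148112547-148112606 on the minus strand of mm9. The floxed arrays read -2.62, -2.13 and -1.16, the induced arrays -1.95, -2.32 and -3.11, and the null arrays -5.68, -5.11 and -5.65. The probe was detected on all floxed and induced arrays and on no null array, and the null values lay below all others with no overlap. Group means were -1.97 ± 0.74 (SD, n = 3) in floxed, -2.46 ± 0.59 in induced and -5.48 ± 0.32 in null cells. The measured difference between null and floxed cells was -3.51 with a 95% interval from -4.41 to -2.62 (limma, adjusted p = 0.00452). Because the null signal was not well above background, the fall is also given with a floor: Cdx2 was then 3.84-fold lower in null cells with all arrays. The floor takes each null array at no less than the dimmest signal that was still well above background on that array. It is no strict bound, since some probes not detected read above it, as Tfap2a did on null array 2 (-3.85 against a floor of -3.97). Without floxed array 3, the highest floxed array for Cdx2, the measured difference was -3.11 and passed (limma, adjusted p = 0.000853). With the floor the fall was then 2.91-fold. Being detected on all floxed arrays and no null array was found for 0.231% of the genes tested, and Cdx2 was the only one of the factors among them. With the raw mean signal, from which no background is subtracted, the difference was -1.16, and with a model-based background correction it was -1.02, and both still passed.

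In induced cells Cdx2 overlapped the floxed arrays. The difference was -0.49 with an interval from -1.39 to 0.40 (limma, adjusted p = 0.968), an interval that still holds changes of either sign. Against induced cells the null cells were lower by 2.73-fold with the same floor, and the measured difference was -3.02 (limma, adjusted p = 0.0115). That call was lost without induced array 1 (-2.76), induced array 2 (-2.95) or null array 1 (-2.92), at adjusted p in limma of 0.0611, 0.0650 and 0.0522. It was also lost with the raw signal, at -0.76, with the model-based correction, at -0.72, and with no filter (limma, adjusted p = 0.0532). The same direction was seen within single slides. On slide 2 null array 3 minus floxed array 3 was -4.49, and on slide 3 the null arrays differed from the induced arrays by -2.93 (limma, adjusted p = 0.00720).

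**Figure D1:**
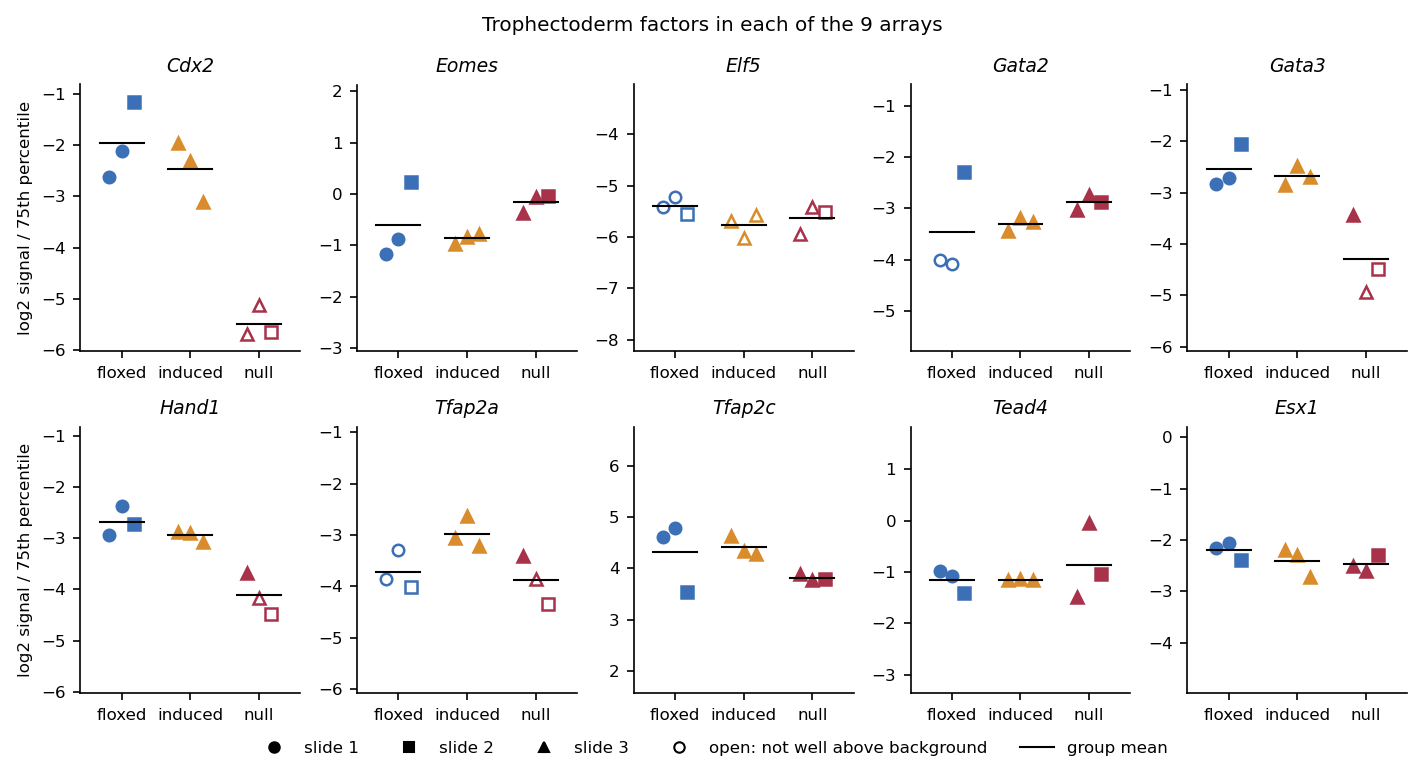
Log2 signal relative to the 75th percentile of the array for each of the 10 factors, with 1 point per array, grouped on the horizontal axis as floxed, induced and null, and vertical axes of equal span but different position. Filled points were well above background, open points were not, point shape gives the slide and bars give group means. Cdx2 lies between -5.68 and -5.11 on the null arrays, with all points open, and Elf5 is open on all 9 arrays.

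Gata3 was read by probe A_66_P111011 at chr2:9779551-9779610 on the minus strand of mm9. The floxed arrays read -2.83, -2.72 and -2.04, the induced arrays -2.86, -2.48 and -2.70, and the null arrays -3.43, -4.94 and -4.48. The probe was detected on every floxed and induced array but on null array 1 only among the null arrays, and all 3 null values lay below the others. Its level was -2.53 ± 0.43 (SD, n = 3) in floxed, -2.68 ± 0.19 in induced and -4.28 ± 0.78 in null cells. Gata3 fell by 1.75 in null compared with floxed cells (SE 0.36, limma, adjusted p = 0.0497), which lies just inside the threshold of 0.05. That fall includes the 2 null arrays on which Gata3 was not detected. With each of them at no less than its lowest detected signal, a setting added after the data were seen, the difference was -1.15. The call held in 4 of 20 other settings, with adjusted p from 0.0116 to 0.232, and the difference was below 0 in all 20, at -0.54 with the raw signal and -0.45 with the model-based correction. It was lost when floxed array 1 or 2, any induced array, null array 2 or null array 3 was left out, with adjusted p in limma from 0.0862 to 0.170. It was also lost with slide as a fixed block (-2.44, limma, adjusted p = 0.232) and as a random block (-2.03, limma, adjusted p = 0.116). Against induced cells the difference was -1.60 (limma, adjusted p = 0.0588) and did not pass. It passed in 6 of 21 other settings, among them slide as a fixed block (-1.50, limma, adjusted p = 0.0441) and as a random block (-1.58, limma, adjusted p = 0.0322).

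Hand1 was tested through probe A_51_P342549 at chr11:57642342-57642401 on the minus strand of mm9. The floxed arrays read -2.94, -2.38 and -2.73, the induced arrays -2.88, -2.89 and -3.07, and the null arrays -3.68, -4.16 and -4.47. As with Gata3, null array 1 was the only null array on which the probe was detected, and the null values did not overlap the rest. The means were -2.68 ± 0.28 (SD, n = 3) in floxed, -2.95 ± 0.11 in induced and -4.11 ± 0.40 in null cells. Hand1 fell by 1.42 against floxed cells (SE 0.21, limma, adjusted p = 0.0160) and by 1.16 against induced cells (limma, adjusted p = 0.0338). With each null array that did not detect Hand1 at no less than its lowest detected signal, the first of these was -1.08. The call against floxed cells held in 13 of 20 other settings, and was lost without floxed array 2 (-1.27) or null array 2 (-1.39), at adjusted p in limma of 0.0690 and 0.0894. It was also lost with slide as a fixed block, at -1.74 (limma, adjusted p = 0.124). The call against induced cells held in 10 of 21, and was lost without any 1 of the induced arrays, null array 2 or null array 3, at adjusted p in limma from 0.0809 to 0.133. With no filter it was lost too (limma, adjusted p = 0.124). With the raw signal the differences were -0.48 and -0.27, and neither passed. In induced cells the difference from floxed cells was -0.26 (limma, adjusted p = 0.968).

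Hand1 had another probe, at chr11:57646257-57646316 on mm9, which the files assign to a different transcript and which did not pass the filter. It was detected on induced arrays 1 and 2 and null array 3 and on no floxed array. Its values were -3.69, -3.52 and -4.17 in floxed, -3.22, -3.83 and -3.94 in induced and -4.24, -4.29 and -2.71 in null cells. The groups overlapped. In a fit of every probe without a filter, added after the data were seen, its null minus floxed difference was 0.05 with an interval from -0.95 to 1.05 (limma, adjusted p = 0.972), so the fall of Hand1 was read by 1 of its probes. In that fit, which spreads the adjustment over 55676 probes, Cdx2 passed (limma, adjusted p = 0.0340) and the tested Hand1 probe did not (limma, adjusted p = 0.113).

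Neither AP-2 factor passed in any comparison in the fit of all 9 arrays with no block. Tfap2a, which acts with Tfap2c in trophoblast, read -3.86, -3.30 and -4.01 on the floxed arrays, -3.07, -2.63 and -3.22 on the induced arrays and -3.41, -3.85 and -4.34 on the null arrays (mm9 chr13:40811044-40811103). It was detected on no floxed array, on all induced arrays and on null array 1. It therefore passed the filter through the induced group alone, which favours a higher value in that group. All 3 induced values lay above all 3 floxed values, as was the case for 6.63% of genes tested, and Tfap2a was the only factor among the 9 that did so in that direction. The measured difference was 0.75 with an interval from 0.14 to 1.37, with an unadjusted p of 0.0220 and an adjusted p of 0.717 in limma. It did not pass. With the floxed arrays at no less than their lowest detected signal the difference was 0.53. With the raw signal it was 0.19 and with the model-based correction 0.25. An unadjusted p under 0.05 was reached by 5.91% of genes in that comparison. A further Tfap2a probe was not detected on any array.

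Tfap2c, an AP-2 factor that is also active in germ cells and in naive stem cells, was bright on all 9 arrays (mm9 chr2:172383860-172383919). It read 4.61, 4.78 and 3.55 in floxed, 4.63, 4.34 and 4.28 in induced and 3.88, 3.78 and 3.79 in null cells. Floxed array 3 was the lowest of all 9, so the floxed and null groups overlapped, while every null array lay below every induced array. The null minus floxed difference was -0.50 (limma, adjusted p = 0.317) and the null minus induced difference -0.60 (limma, adjusted p = 0.229). Without floxed array 3 the first of these was -0.88 and passed (limma, adjusted p = 0.00232). On slide 3 alone the difference from induced cells was -0.59 (limma, adjusted p = 0.0401). That difference passed in 5 of 22 other settings, among them slide as a fixed block (limma, adjusted p = 0.0260) and only the 2 groups compared (limma, adjusted p = 0.0182).

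Eomes, a T-box factor needed for trophoblast proliferation, was detected on all 9 arrays through the probe at chr9:118394425-118394484 on mm9. It read -1.16, -0.89 and 0.23 in floxed, -0.97, -0.84 and -0.78 in induced and -0.38, -0.06 and -0.04 in null cells. Floxed array 3 was the highest of the 9 and above all null arrays, while the remaining floxed arrays and the induced arrays lay below all null arrays. With all arrays the null minus floxed difference was 0.45 (limma, adjusted p = 0.404) and did not pass, and without floxed array 3 it was 0.87 and passed (limma, adjusted p = 0.00395). Against induced cells it was 0.71 with all arrays (limma, adjusted p = 0.202) and 0.65 on slide 3 alone (limma, adjusted p = 0.0281). A further Eomes probe was detected on no array.

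Gata2, a zinc finger factor of trophoblast and of blood, was dim. It read -4.00, -4.08 and -2.29 in floxed, -3.45, -3.18 and -3.27 in induced and -3.04, -2.73 and -2.88 in null cells (mm9 chr6:88156362-88156421). Among floxed arrays it was detected on array 3 only, where it was the highest of all 9, and it was detected on every induced and null array. The measured null minus floxed difference was 0.57 with all arrays (limma, adjusted p = 0.420) and 1.16 without floxed array 3 (limma, adjusted p = 0.000692). Without that array no floxed array detected Gata2. With the 2 remaining floxed arrays at no less than their lowest detected signal, Gata2 was 1.31-fold higher in null cells. This value holds only with floxed array 3 left out. With all arrays, and the floxed arrays that did not detect Gata2 at their lowest detected signal, the null minus floxed difference was 0.064. The measured induced minus floxed difference was 0.16 with all arrays (limma, adjusted p = 0.995) and 0.74 without that array (limma, adjusted p = 0.0461). With the 2 remaining floxed arrays at their lowest detected signal, the last difference was -0.024, so no fold is given for it.

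**Figure D2:**
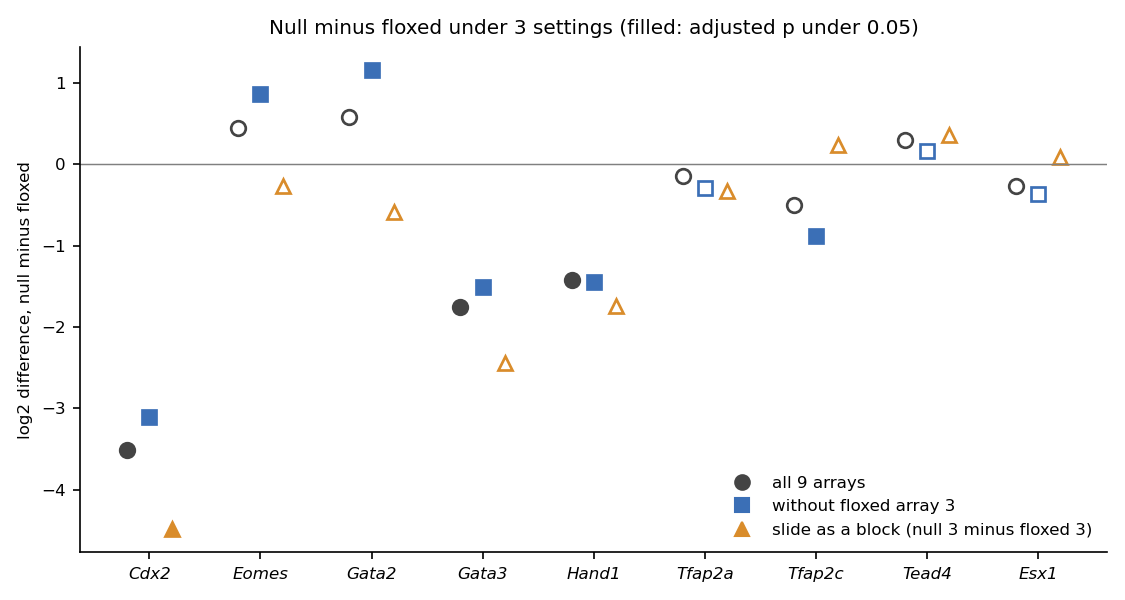
Null minus floxed log2 difference of the 9 factors tested, under the fit of all 9 arrays (circles), without floxed array 3 (squares) and with slide as a block, which reduces to null array 3 minus floxed array 3 (triangles). Filled symbols passed an adjusted p of 0.05. Cdx2 is filled under each setting, and Eomes, Gata2, Tfap2c and Esx1 change sign between the squares and the triangles.

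Floxed array 3 lay farthest from the other floxed arrays for 4 factors. Its difference from the mean of floxed arrays 1 and 2 was 1.75 for Gata2, 1.25 for Eomes, 1.21 for Cdx2 and -1.15 for Tfap2c. For the others it ran from -0.43 for Tfap2a to 0.73 for Gata3. Without it 6 factors passed between null and floxed cells, 4 lower (Cdx2, Gata3, Hand1 and Tfap2c) and 2 higher (Eomes and Gata2), while 11.9% of genes fell and 13.1% rose, so the share of all genes that passed also went up. Without it Gata2 passed between induced and floxed cells, where 0.702% of genes rose, a call set against floxed arrays that did not detect it. Without both arrays of slide 2, an alternative added after the data were seen, 5 factors passed between null and floxed cells, 3 of them lower, where 12.2% of genes fell and 12.8% rose. Within slide 3, 4 factors passed between null and induced cells, Cdx2, Hand1 and Tfap2c lower and Eomes higher, where 7.11% of genes fell and 5.27% rose.

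Tead4 and Esx1 were detected on all 9 arrays and passed in no comparison. Tead4, the DNA-binding partner of Yap that acts upstream of Cdx2, read -0.98, -1.07 and -1.41 in floxed, -1.15, -1.14 and -1.15 in induced and -1.49, -0.04 and -1.04 in null cells (mm9 chr6:128177161-128177220). Null array 2 was above the other 8 arrays and the rest overlapped. Its null minus floxed difference was 0.29 with an interval from -0.41 to 0.99 (limma, adjusted p = 0.599). Esx1, an X-linked homeobox factor of the later placenta, read -2.15, -2.05 and -2.38 in floxed, -2.20, -2.30 and -2.72 in induced and -2.51, -2.61 and -2.29 in null cells (mm9 chrX:133649965-133650024). Its groups overlapped, and the difference was -0.27 with an interval from -0.64 to 0.09 (limma, adjusted p = 0.333).

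Elf5, an Ets factor that marks trophoblast stem cells and is kept silent by DNA methylation in embryonic stem cells, was not well above background on any of the 9 arrays (mm9 chr2:103290958-103291017). Its probe read between -5.56 and -5.23 in floxed, between -6.03 and -5.56 in induced and between -5.94 and -5.42 in null cells. The null values overlapped both other groups, and the induced values lay below the floxed values by a gap that vanishes at this rounding. With no array well above background these values have no order, and the level of Elf5 can only be said to be too low to detect.

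**Figure D3:**
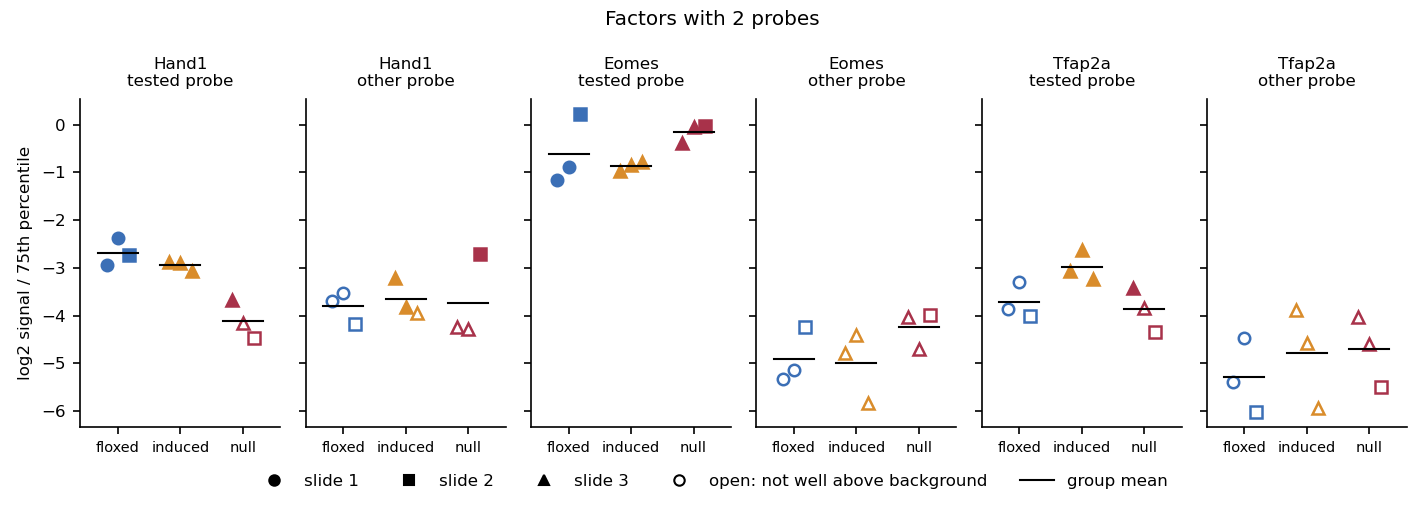
Log2 signal relative to the 75th percentile for the 3 factors with 2 probes each, with the probe used in the fit beside the other one, 1 point per array, and symbols as in the plot of all factors. The other Hand1 probe is filled on 3 arrays and overlaps between groups, and the other probes of Eomes and Tfap2a are open on every array.

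Across the 9 factors tested, the median null minus floxed difference was -0.27, against 0.01 over all genes, and 6 of 9 were below 0. Between induced and floxed cells the median was -0.15 and 5 of 9 were below 0. Between null and induced cells it was -0.60, against 0.02 over all genes, with 6 of 9 below 0. In the last comparison 2 factors passed, both lower, where 1.54% of genes fell and 0.658% rose. There 5 of the 9 lay below the induced arrays with no overlap (Cdx2, Gata3, Hand1, Tfap2a and Tfap2c) and 2 above (Eomes and Gata2), while over all genes 18.3% lay below and 19% above. Of those below, only Tfap2c passed the filter through the null group as well. Between null and floxed cells 3 factors lay below with no overlap, where 11.4% of genes did, and none above, where 12% did. The comparisons share the same arrays, so their values are not independent of one another.

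**Figure D4:**
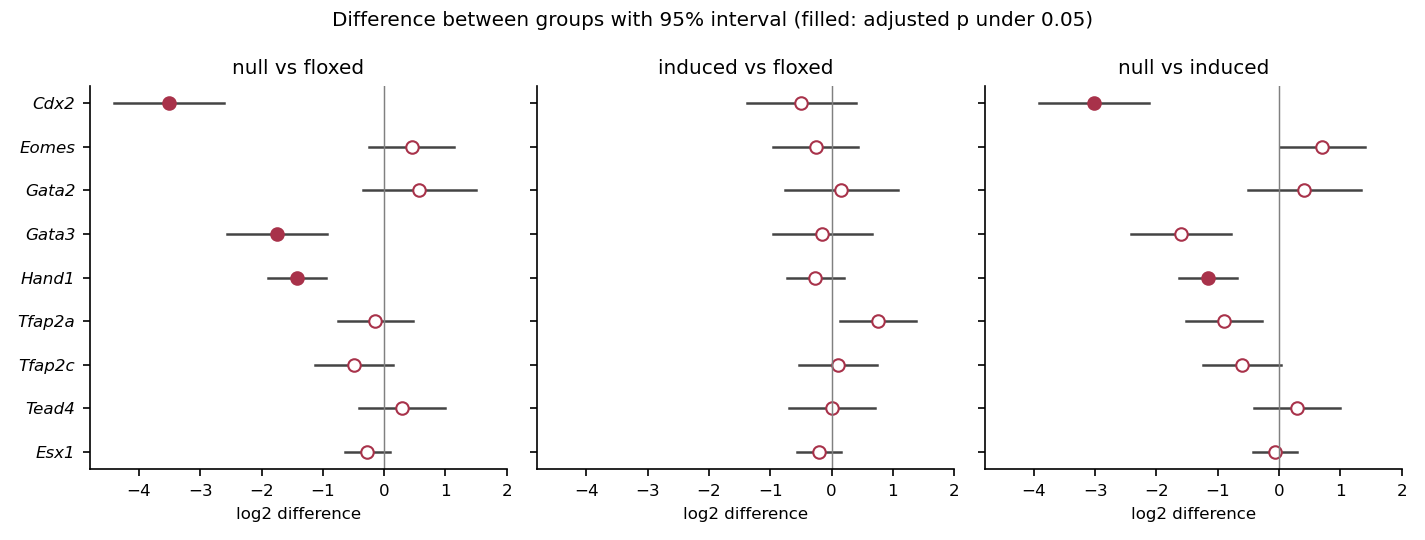
Log2 difference of the 9 factors tested in each of the 3 comparisons, with its 95% interval from limma as a line, filled where the adjusted p was under 0.05. Filled points are Cdx2, Gata3 and Hand1 for null minus floxed, Cdx2 and Hand1 for null minus induced, and none for induced minus floxed.

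The genes whose values followed the fallen factors most closely over the 9 arrays were taken from all genes tested, by Pearson's r and as a description, since the arrays fall into 3 groups. For Cdx2 these were Gpat3, an enzyme of triglyceride synthesis, with r of 0.974, the axonemal dynein Dnahc7a with 0.972 and the keratin Krt42 with 0.966. For Gata3 they were the chemokine Cxcl10 with 0.952, Bpnt2 with 0.939 and Arhgap36 with 0.935. For Hand1 they were the autophagy protease Atg4b with 0.972, the chloride-proton exchanger Clcn5 with 0.967 and the stress-induced factor Atf3 with 0.965.

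Genes around the factors were taken from lists of the trophoblast programme. Of 20 genes of trophoblast stem cells 19 were tested, and in null compared with floxed cells 6 fell, 1 rose and 12 did not pass. Over all genes 1.11% fell and 0.738% rose there. The median difference of the 19 was 0.0048, against 0.01 over all genes. Krt18 fell by 1.86 (limma, adjusted p = 0.00298) and Krt8 fell by 1.64 (limma, adjusted p = 0.000763). They encode the paired keratins of simple epithelia, the trophectoderm among them. Sox21, a factor known to be induced by Sox2, fell by 1.31 (limma, adjusted p = 0.00591) and the keratin Krt7 by 1.13 (limma, adjusted p = 0.0435). With slide as a fixed block none of these passed, at -1.31 for Krt18, -1.49 for Krt8 and -1.02 for Sox21. With slide as a random block those 3 passed, and the Krt7 call held in 5 of 21 other settings. The homeobox genes Rhox9 (-0.72) and Rhox6 (-0.69) also fell, and Spry4, an antagonist of FGF signalling, rose by 0.67. These 3 were named after their values were seen, and their calls held in 9, 8 and 8 of 21 other settings in that order. In null against induced cells Krt18 (-1.36), Krt8 (-0.98) and Sox21 (-1.58) fell and none rose, with calls that held in 17, 18 and 22 of 22 other settings. Over all genes 1.54% fell and 0.658% rose in that comparison. None of the 19 passed between induced and floxed cells.

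The remaining lists had no member past the test in any comparison. Of 20 genes of differentiated trophoblast only 10 were tested, and the others, Tpbpa of the spongiotrophoblast among them, did not pass the filter. Their smallest p between null and floxed cells was that of Phlda2, an imprinted gene that restrains placental growth, with a difference of 0.75 (limma, adjusted p = 0.0536), followed by Nrk at -0.52 (limma, adjusted p = 0.176). All 18 Hippo and Notch genes that act upstream of the factors were tested. There Lats2, the kinase that restrains Yap, differed by -0.75 (limma, adjusted p = 0.0779) and the receptor Notch1 by 0.62 (limma, adjusted p = 0.142). Of 17 relatives of the factors 10 were tested, with Cdx1 at -1.05 (limma, adjusted p = 0.0557) and Gata1 at 0.77 (limma, adjusted p = 0.131). All 16 repressors of trophectoderm genes in stem cells were tested, with a median of 0.14, against 0.01 over all genes, and with 11 above 0 and 5 below. Among them Uhrf1, a cofactor of maintenance DNA methylation, differed by 0.42 (limma, adjusted p = 0.0815) and the DNA methyltransferase Dnmt3b by 0.94 (limma, adjusted p = 0.111). The medians of the other 3 lists between null and floxed cells lay between -0.05 and 0.02.

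**Figure D5:**
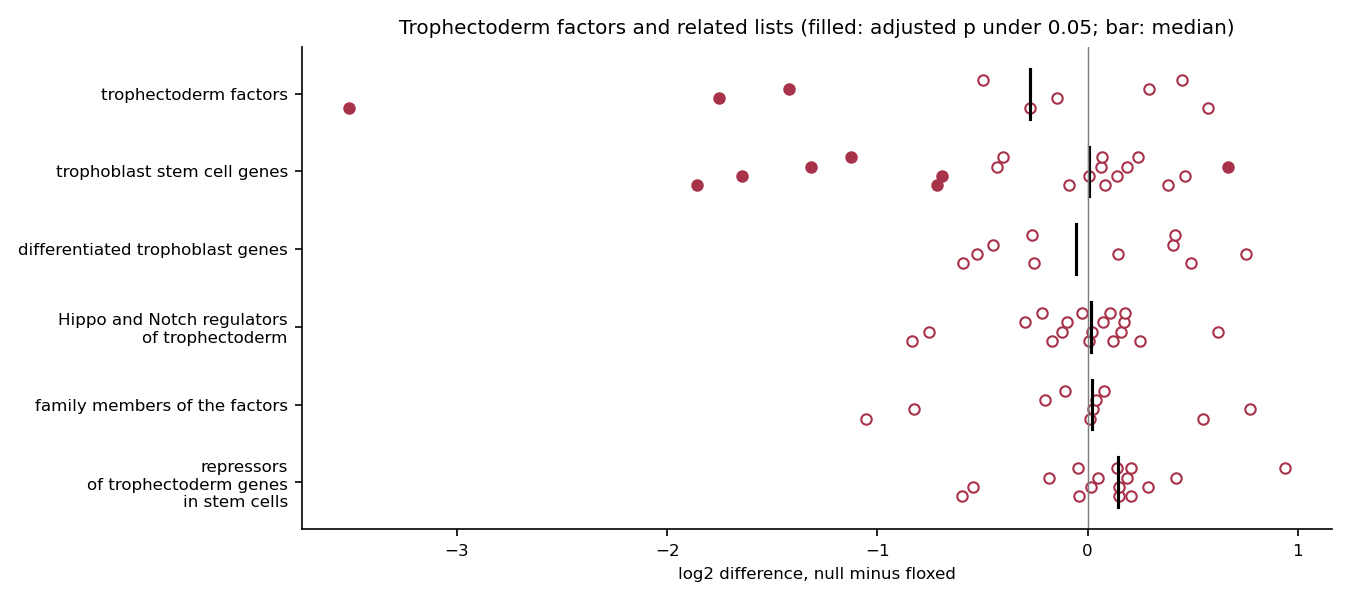
Null minus floxed log2 difference of each tested gene in the 9 trophectoderm factors and 5 related lists, filled where the adjusted p was under 0.05, with the median of each list as a bar. Filled points are found among the factors, 3 below 0, and among the trophoblast stem cell genes, 6 below 0 and 1 above.

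Markers of other cells were read beside these falls. Of 12 markers of fibroblasts or feeder cells 7 were tested, and 6 of them fell in null cells against floxed and against induced cells. Over all genes 1.11% and 1.54% fell in those comparisons. Their summed signal, in units of the array's 75th percentile, was between 30.2 and 36.9 on floxed, between 20.4 and 27.9 on induced and between 8.99 and 10.73 on null arrays. Pdgfrb, Lum and Postn were not detected on any array of any group, and Dcn on no floxed or null array. Their part in the falls of Cdx2, Gata3 and Hand1 was not tested. The 6 markers taken to define trophoblast had a summed signal between 47.4 and 55.1 in floxed, 40.8 and 74.5 in induced and 50.5 and 84.2 in null cells. Tpbpa was not detected on any array, and Krt7 was the one of the 6 that fell, against floxed cells. Only 3 of 10 primitive endoderm markers and 2 of 9 mesoderm markers were tested, and none passed in the comparisons with null cells. Of 7 neuroectoderm markers 6 were tested, and 2 rose in null cells in both comparisons, where 0.738% and 0.658% of all genes rose. In such bulk RNA, fewer cells that express a gene and less RNA in each cell cannot be told apart.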

How the data were processed

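Total RNA of 9 samples was labelled with Cy3 and hybridised to Agilent arrays, 1 array per sample. The deposited files give, for each spot, linear intensity from Agilent Feature Extraction 10.7.3.1 (version as in the submitters' processing notes), with background already subtracted in the processed signal and no scaling between arrays. The series matrix deposited by the authors holds intensity too, equal to the raw mean signal within 1% for 100% of values, with column medians from 94.5 to 140. Its use of the raw signal was found by that match, it was not centred, and 0 columns were left without a sample. Probe positions are those of the files on mm9, where exons were not analysed here.

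Controls and spots marked as outliers were dropped, and repeat spots were averaged per probe. A probe counted as detected where at least 50% of its remaining spots were marked well above background. Each value was the processed signal on a log2 scale, less the 75th percentile of its array. Probes detected on all 3 arrays of at least 1 group were kept (27538, of which 2 lacked a value on some array and were left out), and each gene was read by its brightest probe, which gave 19913 genes. Names came from RefSeq accessions for 27235 probes and from the files for 28446. Groups were compared in 1 fit of 3 group means with limma 3.58.1 in R 4.3.3 (lmFit and eBayes, two-sided), and p-values were adjusted after Benjamini and Hochberg across every gene tested, with calls made under 0.05. The steps were tested on simulated data with independent noise on each array and no slide effect. That test therefore does not bear on calls that change with slide.

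Members, gene lists and the naming rule were chosen with earlier results of these data known. The rule names the members, Xpc, the 3 genes most like each member that passed, and up to 4 genes of each list that passed with the largest difference between null and floxed cells, or the 2 with the smallest p where none passed. Replicate numbers did not pair the arrays: deviations of same-numbered arrays from their group means correlated between -0.106 and 0.0873. Alternatives were quantile scaling, normexp background correction (offset 50), the series matrix, other filters, the mean of probes, slide or replicate number as a block, 2 groups alone, slide 3 alone, and each array left out. Leaving out slide 2, fitting every probe and setting undetected arrays to their lowest detected signal were added after the data were seen.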

Additional observations from a re-analysis of the deposited data

Results flagged for a closer look

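Cdx2 and Hand1 differed between cells with lasting and with recent loss of Xpc, in a direct test of the null against the induced arrays. For Cdx2 the null minus induced difference was -3.02 (limma, adjusted p = 0.0115), lower in 3 of 3 null arrays than in any induced array. For Hand1 it was -1.16 (limma, adjusted p = 0.0338), also lower in 3 of 3 null arrays. Cdx2 was detected on no null array and Hand1 on 1 of 3. With each undetected null array at no less than its lowest detected signal, the differences were -1.45 and -0.82. Neither gene passed the filter through the null group, which favours a fall there. With no filter neither call held (limma, adjusted p = 0.0532 for Cdx2 and 0.124 for Hand1). The Cdx2 call held in 15 of 21 other settings, with adjusted p from 0.00102 to 0.0924, and the Hand1 call in 10 of 21, with adjusted p from 0.0105 to 0.270. All induced arrays and null arrays 1 and 2 shared slide 3, and on that slide alone both passed. The null cells are a constitutive knockout, so the time since deletion and any other difference between the cell lines cannot be told apart.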

How the results depend on the processing

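Cdx2 passed between null and floxed cells in all 20 other settings in which it could be tested, with differences from -4.49 to -1.02 and adjusted p from 0.000853 to 0.0409. The filter requiring detection on all 9 arrays removes Cdx2, Gata3, Hand1, Gata2 and Tfap2a by construction, so 0 members passed there in the comparisons with null cells. For the other changes below the cause was not tested.

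Between null and floxed cells 3 members passed with all arrays. The count was 1 with quantile scaling, with no filter, with slide as a fixed block and with only the 2 groups compared, 5 without the slide 2 arrays, and between 1 and 6 when 1 array was left out, highest without floxed array 3. Between null and induced cells 2 passed. The count was 1 with quantile scaling and with detection on at least 1 array, 0 with normexp background, with the series matrix and with no filter, 5 with slide as a fixed block, with only the 2 groups compared and without the slide 2 arrays, 4 within slide 3, and between 0 and 6 when 1 array was left out. Between induced and floxed cells none passed, and 1 did without floxed array 3, with a range of 0 to 1. At an unadjusted p under 0.05 in limma, 1 member (Tfap2a) passed there with all arrays, as did 5.91% of all genes tested. With the replicate number as a block 2 members passed between null and floxed cells, 0 between induced and floxed cells and 1 between null and induced cells, where Hand1 was lost (limma, adjusted p = 0.0567).

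Over all genes the count that passed moved by more than 1.5 times. The member counts above are to be read beside these. Between null and floxed cells 147 rose and 221 fell, against 46 and 120 with the replicate block, 9 and 41 with slide as a fixed block, and 2606 and 2364 without floxed array 3. With quantile scaling 171 rose and 242 fell, with no filter 10 and 66, and with only the 2 groups compared 20 and 62. Without the slide 2 arrays 2557 rose and 2447 fell. Between null and induced cells 131 rose and 307 fell, with ranges over settings of 9 to 1688 and 50 to 1924, highest without floxed array 3. There 1484 rose and 1765 fell with slide as a fixed block, 1260 and 1520 with only the 2 groups compared, and 1468 and 1746 without the slide 2 arrays. With normexp background 210 rose and 360 fell, with the series matrix 154 and 298, and with no filter 9 and 54. Between induced and floxed cells 1 rose and 0 fell, with ranges of 0 to 140 and 0 to 60.

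Differences that changed sign belonged to members that had not passed. Between null and floxed cells these were Eomes (-0.26), Gata2 (-0.59), Tfap2c (0.24) and Esx1 (0.090) with slide as a fixed block, Tfap2a with normexp (0.086), and, when 1 array was left out, Tfap2a (from -0.37 to 0.094, above 0 without floxed array 2 or null array 3) and Tead4 (from -0.12 without null array 2 to 0.61). Between induced and floxed cells Gata2 turned to -0.066 with normexp, -0.16 with the series matrix, and -0.997 and -0.24 with slide as a fixed and a random block. Tead4 turned to -0.070, -0.080, -0.021 and -0.037 in those settings, and Esx1 to 0.24 with the fixed block. Without the slide 2 arrays Eomes turned to 0.16, Gata3 to 0.095, Tfap2c to -0.28 and Tead4 to -0.13. With 1 array left out, Gata2 ran from -0.15 to 0.74 (below 0 without floxed array 1 or 2), Eomes from -0.53 to 0.16, Gata3 from -0.30 to 0.095, Tfap2c from -0.28 to 0.34 and Tead4 from -0.13 to 0.089. The last 4 took the other sign without floxed array 3, and Tfap2c also without induced array 1. Between null and induced cells Tead4 ran from -0.12 without null array 2 to 0.60, and Esx1 turned to 0.049 with normexp and ran from -0.22 to 0.040, above 0 without induced array 1 or null array 2.

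Dim signal limits these values. Elf5 was detected on no array, Cdx2 on no null array and Tfap2a on no floxed array, while Gata3, Hand1 and Tfap2a were detected on 1 of 3 null arrays and Gata2 on 1 of 3 floxed arrays.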
